A study of Mus musculus with 4 samples.

Results

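AP-1 is a family of dimeric transcription factors built from Jun, Fos and Atf proteins, and 6 of its genes were measured here in denervated and sham tibialis anterior (TA) muscle. Members were chosen by symbol from 9 names (Jun, Junb, Jund, Fos, Fosb, Fosl1, Fosl2, Batf and Atf3). Jun, Junb, Jund, Fos, Fosl2 and Atf3 were found among the 13825 genes of the count table, and Fosb, Fosl1 and Batf were not analysed here. All 6 passed the filter on low values (an average of 10 or more counts across libraries), which left 13084 genes to test.

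The samples were TA muscles of adult male mice, either wild type (WT) or whole-body Fgf21 knockout (Fgf21KO), taken 14 days after surgery on the sciatic nerve. The WT mice are C57BL/6J in the study's methods. WS and WD stand for sham and denervated muscle of WT mice, and KS and KD for the same in Fgf21KO mice, which makes 4 groups. Each group was 4 muscles pooled into 1 library, so no group has a replicate and the spread between mice is not measured. The series text describes removal of 2 mm of nerve from the left leg with an untouched right leg as control, whereas the study's methods describe excision of 5 to 10 mm and a control limb that had the operation without transection. For gene expression work those methods describe both limbs as taken from the same mice, so mouse and genotype cannot be told apart. FGF21 is a circulating growth factor. The knocked-out gene itself was not analysed here, so the labelled genotypes rest on the labels.

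Total counts over the genes analysed ran from 25249879 (WS) to 34141303 (KS). The 15 mitochondrially encoded genes took 27.3% and 30.8% of the counts in WS and KS and 19.6% and 20.8% in WD and KD. Levels are given as CPM, the counts per unit of library size, scaled by TMM, a method that sets the typical gene to an equal level in each library, and under it the median denervation log2 fold change of all genes tested was 0.01. With total counts alone as the scale, the median gene stood at a log2 ratio of 0.29 (WD vs WS) and 0.36 (KD vs KS). A count of 3, taken as the floor, was worth between 0.0919 and 0.129 CPM. The 4 denervation response markers in the table (Gadd45a, Runx1, Ncam1 and Hdac4, of 10 listed) were all called higher after denervation, with a median log2 fold change of 4.11. The 4 fast myofibre markers in the table (of 10 listed) summed to 45695 CPM (WS), 31336 (WD), 44422 (KS) and 33014 (KD). None was called, as all stayed below 2-fold. At an edgeR adjusted p below 0.05 alone, Myh1, Mylpf and Tnni2 were lower after denervation and Des was higher. By that rule 53.5% of all genes tested passed.

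Jun proteins (c-Jun, JunB and JunD) pair with each other or with Fos proteins (c-Fos, Fra-2 and others), whereas Fos proteins need a partner from another family. Atf3, a stress-induced member of the Atf/CREB group, can pair with c-Jun and often represses its targets. The dimers bind the sequence TGACTCA, the classical AP-1 site, or the related CRE sequence TGACGTCA. Many of these genes are immediate early genes, switched on within minutes by growth factors, calcium or stress through the ERK, p38 and JNK kinases, and JNK phosphorylates c-Jun itself. In the study, TGFB1 and the JNK/c-Jun route were examined as upstream of Fgf21, which is why these genes are of interest in this muscle.

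Stretches of 4 of the members' promoters are shown here because they carry matches to motifs for factors described below. They were taken from RefSeq promoter windows on GRCm38.p6, which hold 250 bases before and 50 bases after the annotated start, and all 6 members matched an entry. Each is written 5′ to 3′ along the gene's own strand, and capitals mark matches to a CCAAT box, a TATAA box, the sequences TGACATCA or TGACG (its reverse complement is CGTCA), or the MEF2 consensus.
Jun chr4:95052223-95052302, minus strand: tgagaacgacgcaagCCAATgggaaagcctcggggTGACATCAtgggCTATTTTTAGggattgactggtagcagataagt
Junb chr8:84978749-84978858, minus strand: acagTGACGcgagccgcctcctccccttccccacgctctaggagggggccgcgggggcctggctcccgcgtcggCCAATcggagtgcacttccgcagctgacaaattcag
Fos chr12:85473810-85473889, plus strand: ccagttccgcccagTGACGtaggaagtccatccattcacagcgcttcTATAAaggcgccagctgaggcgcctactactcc
Atf3 chr1:191183334-191183373, minus strand: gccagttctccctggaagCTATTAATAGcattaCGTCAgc
Both strands of the windows were searched, and TGACG is also contained in TGACGTCA. The classical AP-1 site TGACTCA was in 5.2% of all 32851 windows and in 0 of the 6 members' windows. TGACGTCA was in 1.79% and again in 0 of 6. TGACATCA, the variant site known from the Jun promoter, was in 3.62% of windows and in that of Jun, where it began 45 bases before the annotated start. The shorter CRE core TGACG was in 20.8% of windows and in those of Junb, Fos and Atf3. The MEF2 consensus was in 0.557% of windows and in those of Jun, where it began 33 bases before the start, and of Atf3, where it began 22 bases before it. CCAAT was in 37.4% and in those of Jun, Junb and Atf3, and TATAA was in 24.9% and in those of Junb and Fos. The CArG box, the site of serum response factor, was in 1.63% and in 0 of 6, and the known serum response element of Fos lies further upstream than this window reaches. The RefSeq start of Jund lies upstream of the start in GENCODE M21. An absent match says only that these letters are not in the window, and a match is not evidence of binding.

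Denervation raised 4 of the 6 AP-1 genes and lowered none. Junb rose 6.05-fold, Atf3 rose 5.74-fold, Jun rose 2.54-fold and Fosl2 rose 2.10-fold, whereas Jund and Fos did not pass the test. These are values of an additive model of surgery and genotype fitted to the 4 libraries by edgeR (quasi-likelihood test, p-values adjusted by Benjamini-Hochberg over all genes tested), and a gene was called at an adjusted p below 0.05 and at least a 2-fold change. By this rule 6.84% of all genes tested (895) were called higher and 6.24% (816) lower. With total counts alone as the scale the split was 1705 higher and 324 lower, and with total counts without the mitochondrially encoded genes it was 1196 and 525, with 4 members higher and 0 lower under both. Without the fold criterion the members' counts stayed at 4 and 0, whereas 53.5% of all genes tested passed in either direction and 26.6% as higher. At an unadjusted p below 0.05, 4 members were higher and 0 lower. The share of all genes at that cut was not counted but is at least 53.5%, as adjustment never lowers a p-value. DESeq2 and limma-voom also called 4 members higher and 0 lower. Of all genes, DESeq2 called 703 higher and 705 lower, and limma-voom 884 and 819. The median log2 fold change over the 6 members was 1.21. Both libraries of a surgery stand in for replicates in this model, which has 1 residual degree of freedom. That degree of freedom holds the difference in denervation response between the genotypes. With so little per gene, edgeR's error for each gene borrows from all genes tested. The p-values and SE therefore rest on a spread shared over genes in these 4 pooled libraries, and not on variation between mice. In whole muscle, more RNA per cell and more cells of a type that carries it cannot be told apart.

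**Figure D1:**
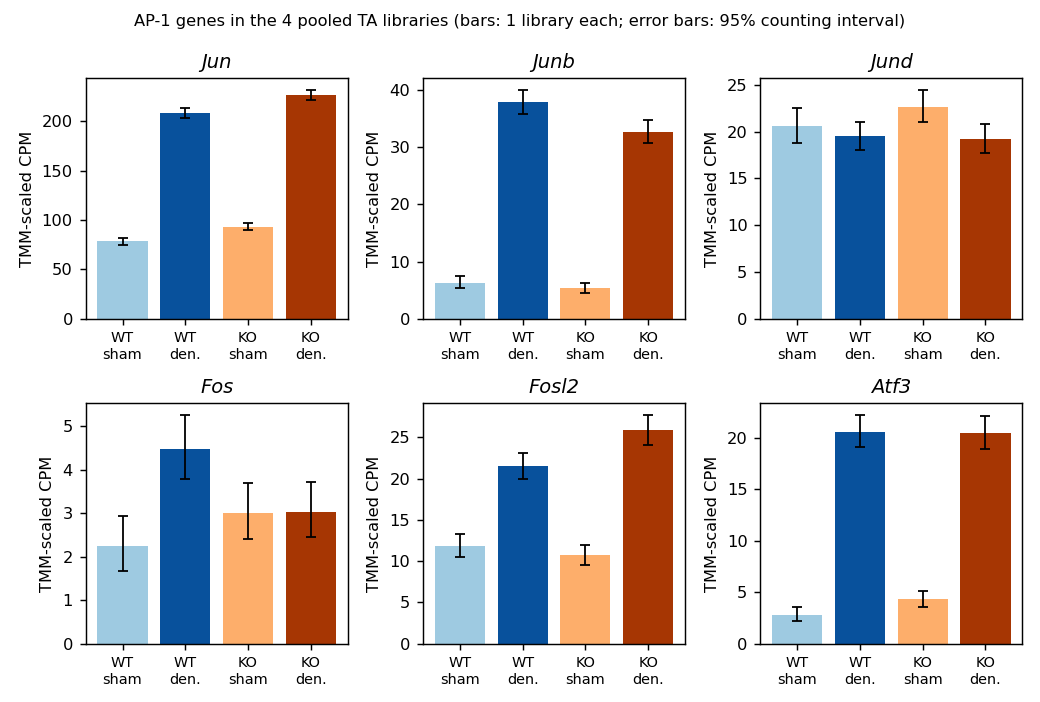
Level of each AP-1 gene in TMM-scaled CPM (y axis, from 0, own scale per gene) in the 4 libraries (bars, 1 library each; error bars are 95% Poisson counting intervals without variation among mice). The bars of Jun, Junb, Fosl2 and Atf3 are higher in both denervated libraries than in both sham libraries, those of Jund lie between 19.2 and 22.7 CPM, and that of Fos stands out in WD alone.

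Jun encodes c-Jun, the member that JNK phosphorylates and the one with the highest count in each library. Its counts were 1823 (WS), 6789 (WD), 2761 (KS) and 7005 (KD), or 78.5, 208, 93.0 and 226 CPM. Both denervated libraries were well above both sham libraries, and the log2 fold change was 1.34 ± 0.07 (SE), with an edgeR adjusted p of 2.34e-15. In WT muscle alone the log2 ratio was 1.41 (95% counting interval 1.33 to 1.48), and in Fgf21KO muscle it was 1.28 (1.22 to 1.35). A mean count above that of 93.6% of the genes tested makes Jun the most precisely counted member. Among all genes tested its fold change ranked 535 from the top.

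Junb encodes JunB, a c-Jun relative that competes for the same partners and is the weaker activator at many sites. It went from 147 counts in WS to 1236 in WD, and from 159 in KS to 1013 in KD. In CPM these were 6.33, 37.9, 5.35 and 32.7, so the lower denervated library was several times the higher sham library. The log2 fold change was 2.60 ± 0.12 (SE; edgeR adjusted p = 3.91e-17), ranked 121 of 13084. The log2 ratio was 2.57 (2.33 to 2.84) in WT and 2.60 (2.37 to 2.86) in Fgf21KO muscle.

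Atf3 had 65 counts (WS), 672 (WD), 128 (KS) and 632 (KD), or 2.80, 20.6, 4.31 and 20.4 CPM. The denervated libraries were nearly level, whereas the sham libraries were not. Its log2 fold change was 2.52 ± 0.16 (SE; edgeR adjusted p = 4.05e-14), ranked 133. The log2 ratio was 2.85 (2.51 to 3.27) in WT and 2.23 (1.97 to 2.53) in Fgf21KO muscle.

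Fosl2 encodes Fra-2, a Fos protein without the strong activation domain of c-Fos. It had 275 counts (WS), 702 (WD), 319 (KS) and 800 (KD), or 11.8, 21.5, 10.7 and 25.9 CPM. The groups of sham and denervated libraries did not overlap, but the change stood close to the 2-fold threshold, with a log2 fold change of 1.07 ± 0.12 (SE; edgeR adjusted p = 1.51e-08). Without the KS library the log2 fold change was 0.997, just under the threshold, and without the KD library it was 0.93, both in a model without a genotype term, so the call was lost by the fold criterion in these fits (adjusted p = 0.000168 and 1.0e-06). The log2 ratio was 0.86 (0.66 to 1.07) in WT muscle, below 2-fold, and 1.26 (1.08 to 1.46) in Fgf21KO muscle.

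Fos, which encodes c-Fos, was the member with the fewest counts: 52 (WS), 146 (WD), 89 (KS) and 94 (KD). These corresponded to 2.24, 4.47, 3.0 and 3.04 CPM, so WD stood above the other 3 libraries, which lay near each other. Its log2 fold change was 0.50 ± 0.26 (SE; edgeR adjusted p = 0.107). With total counts alone as the scale it was 0.82 (edgeR adjusted p = 0.0227). Without the mitochondrially encoded genes in the total it was 0.65 (adjusted p = 0.0358). Under both scales Fos stayed below 2-fold, so only the fold criterion kept it from a call there. The log2 ratio was 0.98 (0.53 to 1.48) in WT and 0.02 (-0.41 to 0.45) in Fgf21KO muscle.

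Jund, which encodes JunD and is known as the more constantly expressed Jun gene, had 478 counts (WS), 637 (WD), 674 (KS) and 594 (KD). Its levels of 20.6, 19.5, 22.7 and 19.2 CPM kept within a narrow range in all 4 libraries. The log2 fold change was -0.16 ± 0.11 (SE; edgeR adjusted p = 0.219), and with total counts alone as the scale it was 0.16 (adjusted p = 0.209), so no direction can be given. The log2 ratio was -0.08 (-0.25 to 0.10) in WT and -0.24 (-0.40 to -0.08) in Fgf21KO muscle.

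**Figure D2:**
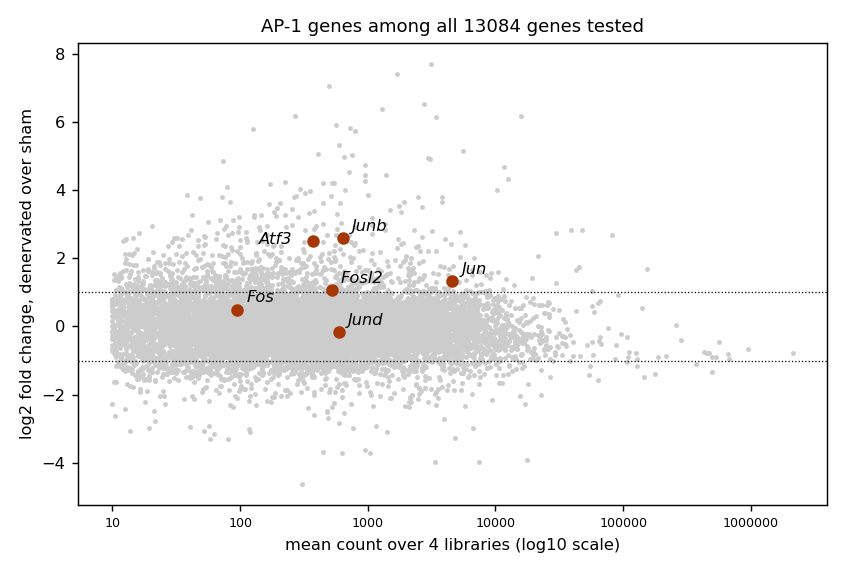
Fitted log2 fold change of denervated over sham muscle (y axis) against the mean count over the 4 libraries (x axis, log10 scale) for the 13084 genes tested (grey) and the 6 AP-1 genes (labelled); dotted lines mark a 2-fold change. Junb (2.60) and Atf3 (2.52) lie well above the upper line, Jun (1.34) and Fosl2 (1.07) closer to it, and Fos (0.50) and Jund (-0.16) between the lines.

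Pair by pair, with a call meaning at least 2-fold by the log2 ratio and no test, 3 members (Jun, Junb and Atf3) were called higher in WD vs WS, where 7.18% of genes tested were. In KD vs KS 4 members (those and Fosl2) were called higher, against 7.51% of genes. No member was called lower in either pair, against 7.61% and 6.1%. With total counts alone as the scale, 5 members were called higher for WD vs WS, as Fos (1.25) and Fosl2 (1.14) also passed, among 1633 genes higher and 486 lower, and 4 for KD vs KS, among 1948 and 342. Without the mitochondrially encoded genes in the total, 4 members were higher for WD vs WS, with Fos at 1.11, among 1234 and 712 genes, and 4 for KD vs KS, among 1317 and 530. The median log2 ratio over the members was 1.19 in WT and 1.27 in Fgf21KO muscle.

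For genotype, in the additive model, edgeR's quasi-likelihood test called 0 of 6 members, against 0.176% of genes tested (0.0611% higher, 0.115% lower). DESeq2 and limma-voom likewise called 0 members. Of all genes, DESeq2 called 5 higher and 8 lower for genotype, and limma-voom 8 and 15. At an unadjusted p below 0.05 there was 1 member, Jun, with a log2 fold change of 0.18 ± 0.07 (SE; unadjusted p = 0.0189, edgeR adjusted p = 0.443). Over all genes tested, 1037 had an unadjusted p below 0.05 for genotype. Junb had a log2 fold change of -0.22 ± 0.11 (SE; adjusted p = 0.672).

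By pairs of libraries, no member was 2-fold apart between Fgf21KO and WT, either in sham muscle (2.04% of genes tested were, 0.887% higher and 1.15% lower) or in denervated muscle (1.55%, 0.841% higher and 0.711% lower). The largest ratio in sham muscle was that of Atf3, at 0.61 on the log2 scale (0.18 to 1.08, from 65 counts in WS and 128 in KS). Jun followed the same sign at 0.24 (0.16 to 0.33). The intervals of Junb (-0.24), Jund (0.14), Fos (0.41) and Fosl2 (-0.14) each included 0. In denervated muscle Fos had the largest ratio in size, at -0.55 in KD vs WD (-0.95 to -0.17), while Fosl2 was at 0.27 (0.12 to 0.41) and Atf3 at -0.01 (-0.17 to 0.15). Junb stood at -0.21 (-0.33 to -0.09), Jun at 0.12 (0.07 to 0.17) and Jund at -0.02 (-0.19 to 0.14).

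**Figure D3:**
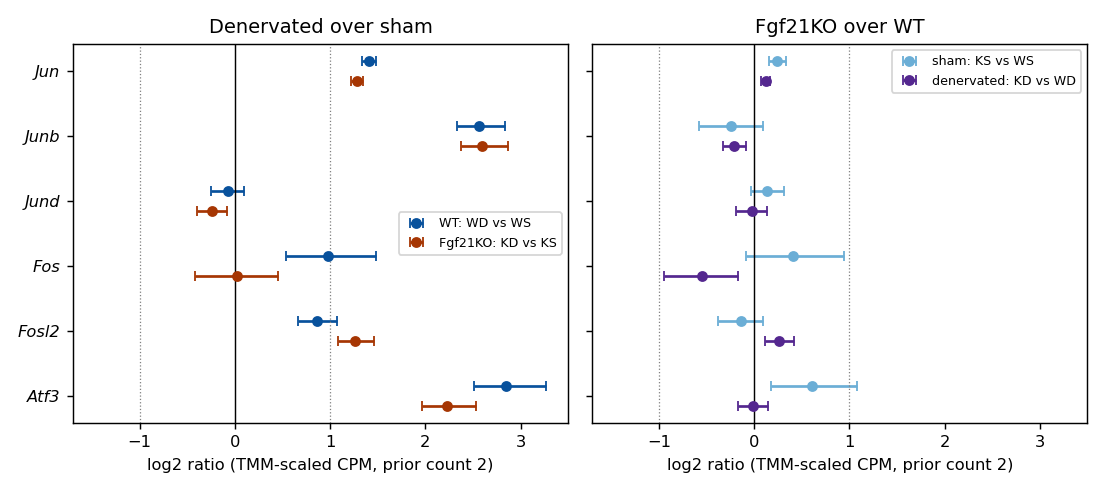
Log2 ratio of TMM-scaled CPM (x axis, prior count 2) for each AP-1 gene, denervated over sham in each genotype (left) and Fgf21KO over WT in each surgery (right); points are ratios of 2 libraries, bars 95% counting intervals, and dotted lines a 2-fold change. Jun, Junb and Atf3 lie past the upper line in both genotypes and no gene lies past a line on the right.

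The denervation log2 ratio of Fos was lower in Fgf21KO than in WT muscle by 0.96 in size, a difference (KO minus WT) of -0.96 with a counting interval of -1.60 to -0.36. For Atf3 this difference was -0.62 (-1.09 to -0.18), and for Jun it was -0.12 (-0.22 to -0.02). Fosl2 went the other way, with a difference of 0.40 (0.13 to 0.68). For Junb (0.03, -0.31 to 0.38) and Jund (-0.16, -0.40 to 0.07) the interval included 0. These intervals hold counting error only. The additive model spends its residual degree of freedom on this difference, so whether denervation acted differently in the genotypes could not be tested.

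To compare genes with each other, CPM were divided by exon length (the union of the exons of coding transcripts in GENCODE M21, from 1668 bases for Jund to 6537 for Fosl2). These per-length levels depend on which ends of each transcript were counted, which the sources used here do not give. Summed over the 6 genes, the level was 44.6 CPM per kb (WS), 113 (WD), 50.8 (KS) and 116 (KD). Jun made up 55.2%, 57.8%, 57.4% and 61.5% of that sum in the same order, the highest share in each library. The share of Jund was 27.7% and 26.8% in the sham libraries and 10.4% and 9.97% in the denervated ones. Junb took 7.84% and 5.83% in sham and 18.6% and 15.7% in denervated muscle, and Atf3 took 2.91% and 3.94% against 8.47% and 8.21%. Thus the per-length level of Junb lay under that of Jund in both sham libraries and over it in both denervated ones.

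The full order of per-length levels was Jun, Jund, Junb, Fosl2, Atf3, Fos in WS and Jun, Jund, Junb, Atf3, Fosl2, Fos in KS. Among neighbours, the counting intervals of Fosl2 and Atf3 overlapped in both sham libraries, as did those of Atf3 and Fos in WS and of Fosl2 and Fos in KS. In WD and KD the order was Jun, Junb, Jund, Atf3, Fosl2, Fos, and no neighbouring intervals overlapped. Per length, Jun transcripts exceeded Fos transcripts 23.2-fold (WS), 30.7-fold (WD), 20.5-fold (KS) and 49.3-fold (KD). For the 3 Jun genes over the 2 Fos genes measured, the ratio was 14.1, 18.1, 14.9 and 18.6.

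**Figure D4:**
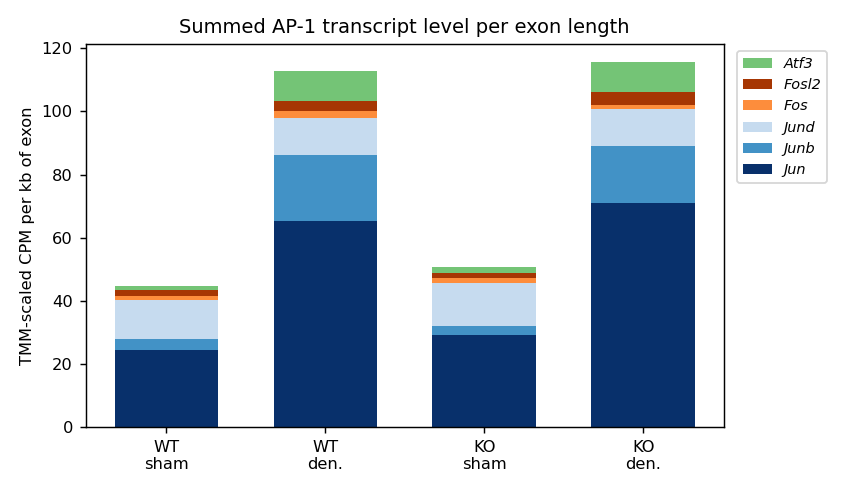
Stacked per-length level of the 6 AP-1 genes (y axis, TMM-scaled CPM per kb of exon) in each library (x axis, 1 pooled library per bar, no error shown). The stacks reach 113 and 116 CPM per kb in the denervated libraries and 44.6 and 50.8 in the sham libraries, with Jun the largest segment in each.

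Gene overlaps bear on the counts. Junos, an antisense gene that overlaps Jun on the opposite strand in GENCODE M21, had 682 counts (WS), 317 (WD), 1048 (KS) and 320 (KD), a log2 fold change of -1.68 ± 0.11 (SE; edgeR adjusted p = 1.87e-13). It thus fell while Jun rose. Prdx2, a peroxiredoxin gene that overlaps Junb on the opposite strand, had 2891, 6286, 3929 and 5974 counts, a log2 fold change of 0.59 ± 0.07 (SE; edgeR adjusted p = 4.89e-08), under the 2-fold threshold. The library kit keeps strand, but whether counting used it is not given in the sources used here, and without strand the reads of such pairs cannot be told apart. Both genes were named after their values were seen. In GENCODE M21 (GRCm38) Jun lies on chromosome 4, Junb and Jund on 8, Fos on 12, Fosl2 on 5 and Atf3 on 1. Jun, Junb and Jund are single-exon genes, so reads from unspliced RNA or genomic DNA would also count on them, whereas Fos, Fosl2 and Atf3 have 4 exons.

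Related bZIP factors are the Atf, Creb, Maf, Cebp and PAR genes that share the dimerising domain. Of 34 tested, edgeR called 0 higher and 4 lower, against 6.84% and 6.24% of all genes tested. The median log2 fold change of the 34 was -0.14. DESeq2 and limma-voom gave the same counts. Of all genes, DESeq2 called 703 higher and 705 lower, and limma-voom 884 and 819. Total-count scaling gave 2 higher and 2 lower, where 1705 of all genes were higher and 324 lower. At an unadjusted p below 0.05, 7 were higher and 14 lower, where at least 53.5% of all genes tested pass in either direction. Maf (-1.83 ± 0.08, SE) and Cebpd (-1.28 ± 0.19) were among those called lower by edgeR (adjusted p = 1.11e-17 and 1.11e-06). Maf went from 2730 to 1082 counts in WT and from 2924 to 858 in Fgf21KO muscle. At the upper end were Cebpa (0.94), Atf6 (0.73), a sensor of endoplasmic reticulum stress, and Creb3 (0.67), all below 2-fold. Jdp2, a repressor that dimerises with c-Jun and was named after its values were seen, had 90, 51, 125 and 89 counts in WS, WD, KS and KD and a log2 fold change of -0.89 ± 0.25 (SE; edgeR adjusted p = 0.00395).

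The JNK cascade leads from upstream MAP4 and MAP3 kinases to the JNK genes. Of its 30 tested genes, 1 was called higher and 3 lower (median -0.18), against 6.84% and 6.24% of all genes tested. The balance of the cascade turned over with the scale. It was 4 higher and 1 lower under total counts alone, where 1705 of all genes were higher and 324 lower. Without the mitochondrially encoded genes in the total it was 2 and 1, against 1196 and 525 of all genes. Map4k4, a kinase at the head of the cascade, rose by a log2 fold change of 1.21 ± 0.10 (SE; edgeR adjusted p = 1.32e-11). Map3k1 (0.92) and Taok3 (0.76) followed, under 2-fold. Tab2, an adaptor of the TAK1 kinase, fell by 1.38 on the log2 scale. Mapk8ip1 (-1.11), a JNK scaffold, and Map3k6 (-1.0) were also called lower. The JNK genes themselves gave -0.06 ± 0.08 (SE; edgeR adjusted p = 0.595) for Mapk8, which encodes JNK1, and -0.87 ± 0.08 (adjusted p = 1.87e-10) for Mapk9, which encodes JNK2, below the 2-fold criterion. Mapk10 was not analysed here. RNA counts do not show phosphorylation, so the activity of these kinases was not measured.

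Of the ERK and p38 kinases, 0 of 21 were called higher and 4 lower (median -0.30), against 6.84% and 6.24% of all genes tested. DESeq2 and limma-voom gave the same counts, where DESeq2 called 703 of all genes higher and 705 lower, and limma-voom 884 and 819. Total-count scaling left 0 higher and 1 lower, where 1705 of all genes were higher and 324 lower. At an unadjusted p below 0.05, 1 was higher and 10 lower, where at least 53.5% of all genes tested pass in either direction. Rps6ka2 (-1.38), an RSK kinase downstream of ERK, Mapkapk2 (-1.31), a kinase downstream of p38, and Mapk14 (-1.16), p38 alpha itself, were the lowest, each called by edgeR. Mapk14 had 4182 counts (WS), 2692 (WD), 5907 (KS) and 2695 (KD). The highest were Rps6ka5 (0.40), Braf (0.24) and Mapk11 (0.18).

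Among 13 factors that act on the Fos and Jun promoters, 2 were called higher and 3 lower (median 0.15). The shares of all genes tested were 6.84% and 6.24%. Scaled by total counts alone, 3 of the 13 factors were called higher and 0 lower, where 1705 of all genes were higher and 324 lower. The lower calls of Srf, Mrtfa and Elk3 below therefore hold under TMM and not under that scale. That of Elk3 lies at the 2-fold threshold itself. Elk1, an ERK-regulated partner of serum response factor, rose by a log2 fold change of 1.35 ± 0.11 (SE; edgeR adjusted p = 1.15e-11). Mef2a, a muscle factor that binds the MEF2 consensus shown above, rose by 1.04 ± 0.07 (adjusted p = 3.78e-13). Its counts were 4311 (WS), 12466 (WD), 5412 (KS) and 11569 (KD). The related Mef2c (0.35) and Mef2d (-0.29), both named after their values were seen, stayed below 2-fold and had opposite signs. Srf, serum response factor itself, fell by 1.27 on the log2 scale (2478, 1395, 3039 and 1354 counts), as did its coactivator Mrtfa, by 1.31, and its partner Elk3, by 1.0. Elk4, another partner, was at 0.74, below 2-fold. Tgfb1, the growth factor that the study examined as upstream of JNK, rose by 1.98 ± 0.12 (SE; edgeR adjusted p = 2.77e-14), from 191 to 1014 counts in WT and from 190 to 821 in Fgf21KO muscle.

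Of 19 tested genes for AP-1 turnover and cofactors, edgeR, DESeq2 and limma-voom each called 0 in either direction. Over all genes tested edgeR called 13.1%, DESeq2 called 703 higher and 705 lower, and limma-voom called 884 and 819. At an unadjusted p below 0.05, 2 of the 19 were higher and 9 lower, where at least 53.5% of all genes tested pass. The median of the 19 was -0.07. Values ran from Ep300 (-0.74), a coactivator, Det1 (-0.65) and Cop1 (-0.51), parts of a ubiquitin ligase for c-Jun, to Csk (0.25), Fbxw7 (0.28), another ubiquitin ligase for c-Jun, and Pdlim1 (0.61).

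**Figure D5:**
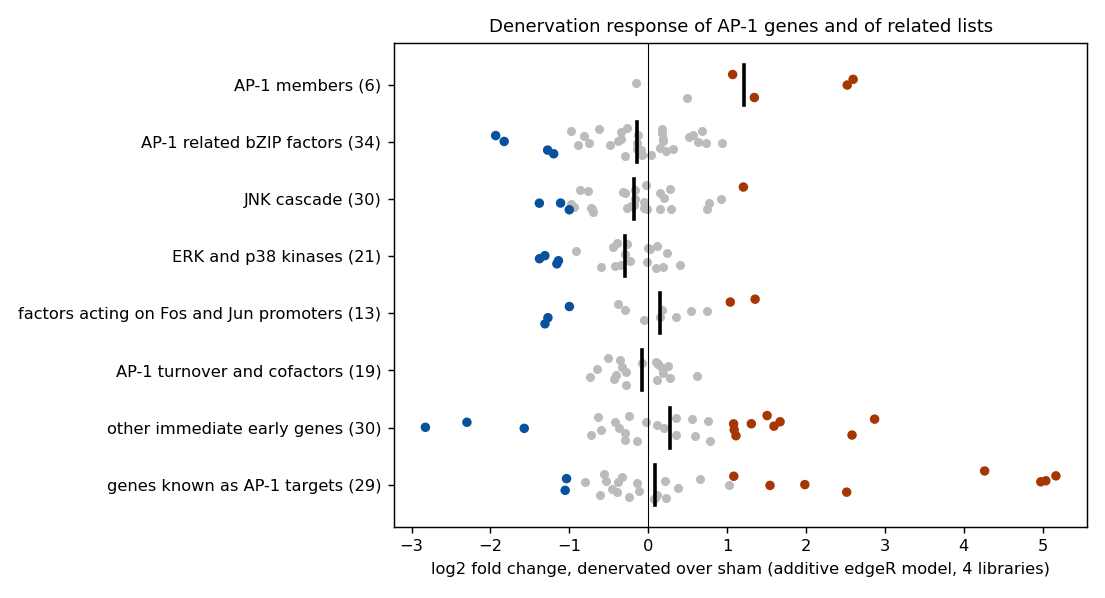
Fitted log2 fold change, denervated over sham (x axis), of each tested gene in 8 lists (rows, number tested in brackets); red points were called higher, blue called lower, grey not called, black bars are list medians, and the height of a point within its row carries no value. The AP-1 members have the highest median (1.21), and the medians of the other 7 lists lie between -0.30 and 0.27.

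Other immediate early genes split in both directions. Of 30 tested, 9 were called higher and 3 lower (median 0.27), against 6.84% and 6.24% of all genes tested. Dusp2, a phosphatase of MAP kinases, rose by 2.87 ± 0.33 (SE; edgeR adjusted p = 1.65e-08), from 22 to 172 counts in WT and from 8 to 97 in Fgf21KO muscle. Ccn1, a secreted matrix protein, rose by 2.58 ± 0.09 (adjusted p = 2.99e-20), and Csrnp1 rose by 1.67 ± 0.18. Gadd45b fell by 2.83 on the log2 scale, the nuclear receptor gene Nr4a1 fell by 2.30 and Gadd45g fell by 1.57. Nr4a1 had 4365 counts (WS), 1808 (WD), 6608 (KS) and 942 (KD). Egr1, often induced together with Fos and named after its values were seen, had 95, 224, 155 and 276 counts and a log2 fold change of 0.76 ± 0.18 (SE; edgeR adjusted p = 0.000624).

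Of 29 tested genes known as AP-1 targets in other settings, 8 were called higher and 2 lower, with a median of 0.08. Over all genes tested the shares were 6.84% and 6.24%. Tgfb1, given above as examined upstream of JNK, is also in this target list and among its higher calls. DESeq2 called 7 higher and 2 lower, where it called 703 of all genes higher and 705 lower. Under total counts alone 324 of all genes were lower, and 525 without the mitochondrially encoded genes in the total. The lower calls, those of Hbegf and Vegfa, were both lost under total-count scaling, with or without the mitochondrially encoded genes, and in the fit without the KD library (0 lower), and 1 was left without the WS library. Cdkn1a, the cell cycle inhibitor p21, rose 35.9-fold (175 counts (WS), 11926 (WD), 338 (KS) and 9971 (KD); edgeR adjusted p = 2.06e-24). Mt2, a metal-binding metallothionein, rose 32.9-fold and Lgals3, which encodes galectin-3, rose 31.4-fold. At the other end, Hbegf fell by 1.05 and Vegfa by 1.04 on the log2 scale, both growth factor genes, and the collagen gene Col1a2 was at -0.80. Most of these genes answer to other factors too, and binding by AP-1 was not measured.

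Markers of other cell types moved with the surgery as well. By the same edgeR rule 6.84% of all genes tested were called higher and 6.24% lower. All 9 macrophage markers were tested and 4 were called higher (median 0.86), with summed levels of 22.3 CPM (WS), 54.0 (WD), 25.3 (KS) and 51.5 (KD). Cd68 had 23 counts (WS), 350 (WD), 32 (KS) and 333 (KD), a log2 fold change of 3.37. Summed levels of the 6 endothelial markers were 534, 238, 435 and 234 CPM, with 3 called lower (log2 fold changes of -1.22 to -1.07). Those of 4 smooth muscle and pericyte markers (of 5 listed) were 678, 284, 630 and 280 CPM, with 4 called lower (-1.31 to -1.21). With total counts alone as the scale the median gene stood at 0.29 (WD vs WS) and 0.36 (KD vs KS). Whether these lower calls hold under that scale was not tested gene by gene. The lower calls of Mrtfa (-1.31) and Srf (-1.27), of like size under TMM, were lost there. Jund moved up from -0.16 to 0.16. The 7 markers of fibro-adipogenic progenitors, the mesenchymal cells of muscle, summed to 683, 443, 657 and 459 CPM, with 0 called by edgeR. At an unadjusted p below 0.05, 0 of these were higher and 6 lower, where at least 53.5% of all genes tested pass in either direction. Of 6 Schwann cell markers 3 were in the table (53.2, 22.1, 53.7 and 22.6 CPM), of 5 T cell markers 0 were, and of 5 neutrophil markers 2 were (0.904, 1.38, 0.404 and 0.873 CPM). The part of these cells in the AP-1 values was not tested.

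For each member with a mean count of at least 100, the genes of nearest pattern were found by the Euclidean distance of log2 CPM over the 4 libraries, each centred on its gene mean, among 10179 genes. Nearest to Jun were Srxn1, the oxidative stress gene that encodes sulfiredoxin (distance 0.0661), Esd (0.0814) and Dars (0.0879). Srxn1 had 713 counts (WS), 2670 (WD), 1121 (KS) and 2668 (KD). Nearest to Junb were E2f2, a cell cycle factor (0.152), Fggy (0.155) and the noncoding RNA H19 (0.165), and nearest to Fosl2 were Cdyl (0.0494), Rwdd2b (0.0745) and Gm8451 (0.0860). Atf3 was nearest to Lix1 (0.132), Gm6789 (0.174) and Cd28 (0.269), all with lower counts than Atf3 itself. Jund, which varied little, was nearest to Sars (0.0142), Ntmt1 (0.0149) and Ddit3 (0.0155), the last also a bZIP gene. Gm6789 and Gm8451 are predicted genes whose counts may share reads with similar copies. With 4 libraries such likeness is a description of these libraries.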

How the data were processed

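Poly(A) RNA of TA muscles was sequenced from a stranded kit, 1 pooled library per group (WS, WD, KS and KD), grouped as the labels give them. The authors deposited raw read counts for each gene, not normalized, beside a table of log2 values. Those deposited log2 values follow log2(f × count + 1), where f is constant within a library (largest relative deviation 0.00071%), and served only as an alternative. The submitters' processing notes name GRCm39 and FastQC. The aligner, counter and strand setting are not given in the sources used here. GRCm38 gene models (GENCODE M21) gave exon lengths and overlaps, and RefSeq GRCm38.p6 gave promoters.

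Of 13825 genes, each with at least 1 count in each library, 741 with a mean count below 10 were left out. Counts were scaled by TMM and fitted with edgeR 4.0.16 in R 4.3.3 (quasi-likelihood test, additive model of surgery and genotype, common biological coefficient of variation 0.0681), as the study's methods name edgeR and its thresholds. The standard error is the fold change divided by the square root of F. Pairs of libraries were compared by log2 CPM at a prior count of 2, with exact conditional 95% counting intervals, which leave out the spread between mice. Alternatives were other scalings, filters, prior counts and call rules, DESeq2 1.42.0, limma 3.58.1, and, added after seeing the data, fits without a genotype term and without each library. The scripts were tested on simulated data. Motifs were searched with Python 3.11.15.

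Genes named are the members, the 3 highest and 3 lowest denervation fold changes of each list, the 3 nearest patterns per member, and Mapk8, Mapk9, Tgfb1 and Srf. A gene picked by the list rule is not reported here. Marker genes are named where a result turns on them, and other genes are said to be named after their values were seen. The members and gene lists were chosen with earlier results of these data known.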

Additional observations from a re-analysis of the deposited data

Results flagged for a closer look

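The ratio of Fgf21KO over WT was screened among the AP-1 members and the list genes named for the highest or lowest denervation fold changes. For 7 of these genes it had opposite signs in sham and in denervated muscle, each with a counting interval off 0. None of the 7 is an AP-1 member, and the difference between the surgeries was not tested. Such sign changes were not counted over all genes tested, so no background share can be given. The intervals hold counting error only. The log2 ratio was 0.59 in sham and -0.18 in denervated muscle for Cdkn1a, 0.24 and -0.86 for Nr4a1, 0.15 and -0.37 for Gadd45b, and 0.17 and -0.24 for Creb3. It was -0.57 in sham and 0.21 in denervated muscle for Elk4, -0.31 and 0.17 for Map4k4, and -0.11 and 0.36 for Col1a2.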

How the results depend on the processing

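Each group is 1 library, so the alternatives bear on processing and not on the spread between mice. No paired analysis was possible because the 4 muscles of a group were pooled before sequencing, so muscles of single mice cannot be matched. The genotype term already sets each denervated pool against the sham pool of its own genotype. Without it 4 members were still called higher and 0 lower, among 865 genes higher and 802 lower. Without each library in turn, in a model without a genotype term, 836 to 853 genes were called higher and 693 to 895 lower after denervation, and 3 to 4 AP-1 members were called higher and 0 lower. The genotype effect was not refitted without a library: the surgery term would leave no residual degree of freedom, and a fit without that term was not run. For the denervation effect, Jun (1.22 to 1.67), Junb (2.48 to 2.92) and Atf3 (2.24 to 2.87) kept their call in 13 alternatives, Fosl2 (0.93 to 1.39) lost it in 2, and Fos (0.21 to 0.82) was never called. Jund reversed under total counts alone (0.16). For the genotype effect of the additive model, the alternatives called 0 members.

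Under total counts alone, denervation gave 1705 genes higher and 324 lower, genotype gave 5 higher, WD vs WS gave 1633 higher (5 AP-1 members) and 486 lower, and KD vs KS gave 1948 higher and 342 lower. Total counts without the mitochondrially encoded genes gave 525 lower for denervation and 530 lower for KD vs KS. A mean count of at least 50 left 7 genes lower for genotype, 28 higher and 40 lower in KS vs WS, and 27 higher and 19 lower in KD vs WD, from fewer genes tested. Without a fold threshold, 3476 genes were higher and 3527 lower for denervation, and 41 higher and 47 lower for genotype. DESeq2 gave 5 higher and 8 lower for genotype. A prior count of 5 gave 99 lower in KS vs WS. The deposited log2 values, whose added 1 shrinks low counts, gave 571 higher and 617 lower for WD vs WS, 591 and 526 for KD vs KS, 15 and 14 in KS vs WS, and 14 and 11 in KD vs WD. At 1.5-fold, WD vs WS gave 2234 higher (5 AP-1 members) and 2311 lower, KD vs KS 2243 and 2186, KS vs WS 448 (1 AP-1 member) and 549, and KD vs WD 407 and 367. The edgeR exact test at an assumed variation of 0.1 gave 25 higher and 31 lower in KS vs WS, and 29 and 22 in KD vs WD. At an assumed variation of 0.4 it gave 55 higher and 8 lower for WD vs WS, 69 and 12 for KD vs KS, 0 and 0 in KS vs WS, and 0 and 3 in KD vs WD, with 0 AP-1 members called for WD vs WS or KD vs KS. Counts were lowest for Fos, whose counting intervals were the widest of the 6 members in each comparison. Causes of these shifts other than those named were not tested.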
